A study of Mus musculus with 6 samples.

Results

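Cholesterol genes were followed in mouse RPE/choroid, a tissue made of the pigmented epithelium that backs the retina and the vessels that supply it. The set was a list of 30 gene symbols for cholesterol synthesis, its control, and the export and storage of sterol, looked up by exact symbol among the 33924 genes of the table. Of these, 29 had a row, and Hmgcs1, a synthase at the start of the pathway, was not analysed here under that symbol. The libraries came from 6 C57BL/6J mice, a wild-type inbred strain, 3 young and 3 aged, and were made from ribosome-depleted total RNA. The labels gave 1 to 2 months for young mice. For aged mice they gave 20 to 24 months in the titles and 22 to 24 months in the time label. All were labelled male, while the methods of the study named both sexes and an older young group. The labels name no agent or transgene in either group.

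The quantity reported is the authors' mean, for each gene, of normalized read counts over the 6 libraries. It weighs young and aged mice alike and carries no SD, because values per mouse were not analysed here. The table's columns for the age contrast hold the authors' own results and were not used, so no difference between young and aged mice is given for any gene below. Depth per library is unknown here, and an order of levels is an order of means without an error. The study's methods name TPM, a unit already divided by transcript length, as a step before the normalized counts, and whether the deposited means keep that division is not stated. Over 15118 protein-coding genes with a mean of at least 10, the median mean was 272 in the shortest of 5 groups of near equal size by transcript length and 967 in the longest. Divided by transcript length, the same medians were 229 and 144. Single genes were therefore compared with each other per length, both per kilobase of coding sequence and per kilobase of the annotated transcript with the longest coding sequence. The latter includes untranslated ends, and ratios between genes are given on both scales. If the means were already divided by length, the undivided values would be the ones to compare, so they are printed too for the cholesterol genes.

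Cells make cholesterol from acetyl units. Mevalonate is built first, then isoprenoid chains, which are joined into squalene, closed into lanosterol and trimmed to cholesterol in the endoplasmic reticulum. When sterol is scarce, the escort protein Scap carries SREBP transcription factors to the Golgi, where they are cut and released to switch on synthesis and uptake genes. Insig proteins hold Scap back when sterol is plentiful. Oxidized sterols activate the liver X receptors (LXR), which raise export through ABC transporters. The RPE takes up lipid with the outer segments it engulfs daily and exchanges it with the choroidal circulation, so both synthesis and export matter in this tissue.

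All 29 genes were detected, with means, not divided by length, from 156 for Idi1 to 7813 for Abca1. Their median was 985 normalized counts, and 14 of the 29 stood at 1000 or more. The lowest of these 14, Ggps1 with 1036, lay at the 75.8th percentile of protein-coding genes with a mean above 0. Among the 26681 genes with a mean above 0, whose median was 82.1, all 29 lay above the median, and the median member lay at the 82.4th percentile. That background is not limited to protein-coding genes. Against the 18033 protein-coding genes with a mean above 0, the median member lay at the 74.6th percentile, and 23 of 29 exceeded the protein-coding median of 322. Together the 29 genes held 0.201% of the summed signal of the table.

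Dividing by length left this picture much as it was. Per coding kilobase, 25 of the 29 genes lay above the protein-coding median of 223, and per transcript kilobase 28 lay above the corresponding median of 112. The 25 were above the median on both scales. The 4 genes below it per coding kilobase were Idi1, Tm7sf2, Dhcr7 and Nr1h3, and Idi1 was the 1 gene below it per transcript kilobase as well. The plot of the distribution shows most of them right of the centre and none at its far end.

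**Figure D1:**
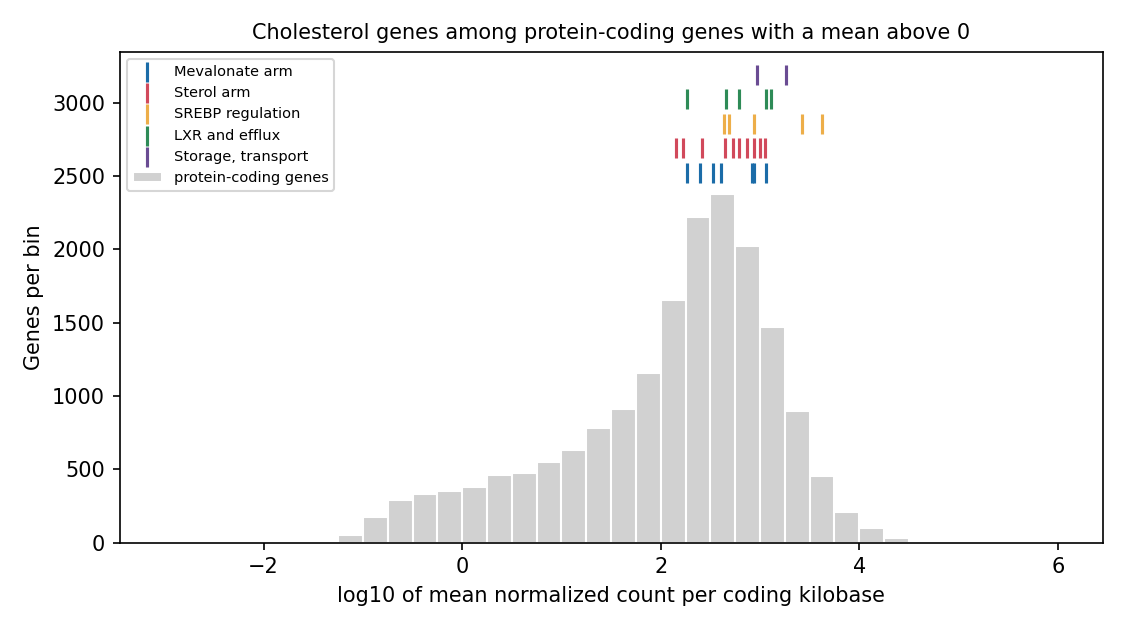
Grey bars count protein-coding genes with a mean above 0 by the log10 of their mean normalized count per coding kilobase, and coloured ticks mark the 29 cholesterol genes, 1 row for each role. The ticks lie from 142 (Dhcr7) to 4218 (Insig1) per coding kilobase, mostly to the right of the protein-coding median of 223.

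The tissue around these genes was mixed. Per coding kilobase, markers of the RPE ran from 27358 (Rpe65) to 225219 (Ttr) for 5 of 6 genes, with 42.2 for Best1, a chloride channel gene of the RPE. Pigment cell markers, which RPE and melanocytes share in part, ran from 7995 to 57476 on that scale. Rod photoreceptor genes had up to 11746 (Gnat1), skeletal muscle genes up to 15421 (Acta1) and fibroblast genes up to 40894 (Dcn). Macrophage markers ran from 665 to 1386 and endothelial markers from 436 to 1795, and adipocyte markers were at 30.8 or less, all per coding kilobase. The cholesterol genes are read in nearly every cell type, so these bulk means do not tell which cells carried the RNA, and more cells of a type cannot be told apart from more RNA per cell.

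The gene with the highest level per length was one of SREBP control. Insig1, on chromosome 5 at 28071363 to 28078662 (GRCm38, plus strand, 5 exons), encodes a sterol-sensing retention protein. It had a mean of 3277, and its 4218 per coding kilobase and 1215 per transcript kilobase were the highest of the 29 genes on both scales. Insig2, its homologue on chromosome 1 at 121304353 to 121332589, had a mean of 1774, with 2629 per coding kilobase and 658 per transcript kilobase. Insig1 thus exceeded Insig2 by 1.60 times per coding kilobase and by 1.85 times per transcript kilobase. Not divided by length, Abca1 stood above both.

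The pair of SREBP genes differed in the same way on both scales. Srebf1, whose products favour fatty acid synthesis, had a mean of 2965, or 872 per coding kilobase, and lies on chromosome 11 at 60199089 to 60222581. Srebf2, whose product favours cholesterol synthesis and uptake, had a mean of 1465, or 432 per coding kilobase, on chromosome 15 at 82147181 to 82205379. The ratio was 2.02 per coding kilobase and 2.39 per transcript kilobase in favour of Srebf1. Scap, the escort of both, had 1849, close to Srebf2 per coding kilobase (ratio 1.12) and 1.52 times it per transcript kilobase. Over the 5 control genes the median was 872 per coding kilobase, against 530 over the 17 synthesis genes, and 658 against 258 per transcript kilobase, with overlapping ranges on both scales. Without division by length the medians were 1849 and 576.

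**Figure D2:**
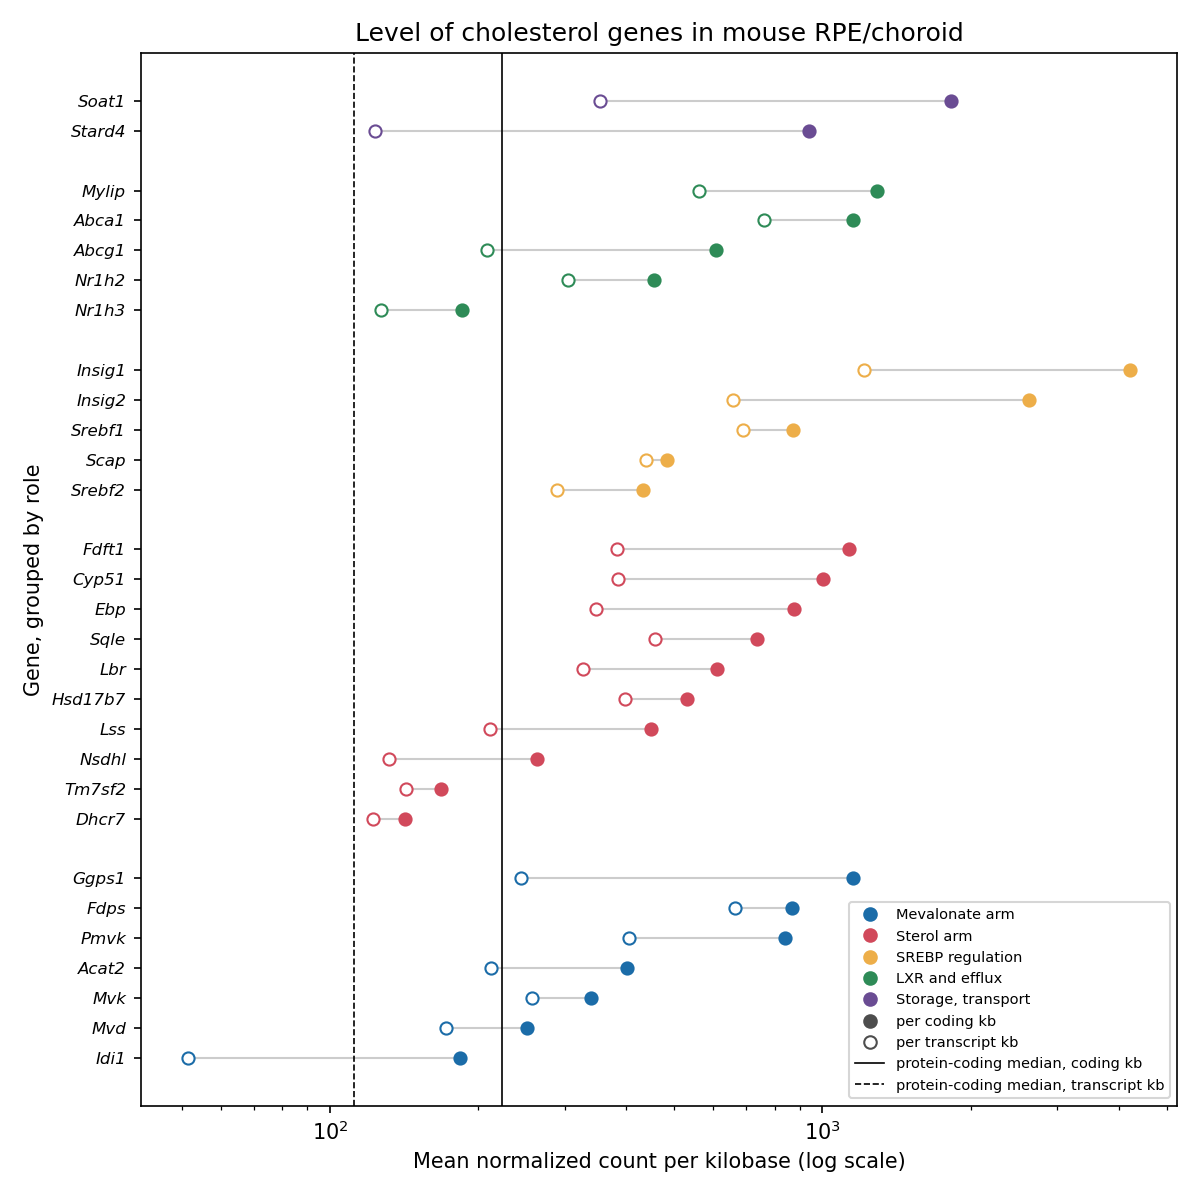
Each row is a cholesterol gene, grouped and coloured by role. The x axis is its mean normalized count per kilobase on a log scale, with filled points per coding kilobase, open points per transcript kilobase, and lines at the protein-coding medians (223, solid, and 112, dashed). Insig1 lies farthest right on both scales, and Idi1 is the only open point left of the dashed line.

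Enzymes of the mevalonate arm had a median of 401 per coding kilobase over 7 genes, with a span of 6.27 times from lowest to highest. Per transcript kilobase the median was 244 and the span 12.9 times, and the undivided median was 477. Acat2, the thiolase of the entry step, had a mean of 477 and lies on chromosome 17. It shares 43.7% of its 31-base words with the neighbouring copy Acat3, which had a mean of 62.4, so how reads were shared out between the copies is not known. The kinases that phosphorylate mevalonate in turn, Mvk and Pmvk, had means of 413 and 484, and Mvd, the decarboxylase that follows, had 302. Pmvk has a short coding sequence of 576 bases and so stood higher per coding kilobase (840) than Mvk (338) and Mvd (251). It also stood higher per transcript kilobase, with 405 against 258 and 172.

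Idi1, the isomerase that makes the reactive isoprenoid unit, had a mean of 156. This was 184 per coding kilobase, 27th of the 29 genes, and 51.5 per transcript kilobase, the lowest of all on that scale. Only 72.9% of its words occur in no other gene, and the gene it shares most with is Gm13502. Past this step the isoprenoid synthases were higher. Fdps, which makes farnesyl diphosphate, had a mean of 920 (868 per coding kilobase), and Ggps1, which draws farnesyl diphosphate towards protein prenylation, had 1036 (1151 per coding kilobase). Their order turned with the length used, since the ratio of Ggps1 to Fdps was 1.33 per coding kilobase and 0.367 per transcript kilobase, and 1.13 without division. Fdps shares 24.6% of its words with Gm43738, whose exons overlap it on the same strand by 1124 bases, so its level and this ratio are uncertain.

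In the sterol arm, 10 enzymes had a median of 571 per coding kilobase, 337 per transcript kilobase and 795 without division by length. Fdft1, squalene synthase and the step committed to sterols, had a mean of 1414, with 1133 per coding kilobase and 382 per transcript kilobase. It lies on chromosome 14 at 63145150 to 63179578 and overlaps exons of Ctsb on the opposite strand by 774 bases. Of its words, 68.1% occur in no other gene. Sqle, squalene epoxidase, which is regarded as a rate-controlling step, had a mean of 1263 (736 per coding kilobase and 458 per transcript kilobase) and is on chromosome 15 at 59315077 to 59331192. Lss, which closes the rings to lanosterol, had 985 (448 per coding kilobase and 211 per transcript kilobase). Cyp51, the demethylase acting on lanosterol, had a mean of 1514, with 1003 per coding kilobase and 385 per transcript kilobase.

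A pair of enzymes can carry out the reduction after Cyp51. Lbr, also a protein of the inner nuclear membrane that binds lamin B, had a mean of 1148. Tm7sf2, the dedicated reductase, had 210. Lbr stood 3.64 times above Tm7sf2 per coding kilobase, 2.29 times per transcript kilobase and 5.46 times without division by length. Exons of Tm7sf2 overlap those of Vps51 on the same strand by 532 bases (12.1% of its exonic bases). Exons of Lbr overlap the annotated rRNA gene Gm26004 on the same strand by 69 bases, and Dnah14 on the opposite strand by 440 bases. Both levels and these ratios are therefore uncertain.

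The steps after it varied in level. Nsdhl and Hsd17b7, which act together in removing methyl groups from the ring, had means of 286 and 576, or 263 and 530 per coding kilobase. Ebp, the isomerase that shifts a ring double bond, had 605, or 878 per coding kilobase. Per transcript kilobase the order of Ebp and Hsd17b7 turned, with 347 for Ebp, 398 for Hsd17b7 and 132 for Nsdhl. Dhcr7, the reductase of the last step of one branch, had 202 and, at 142, the lowest level per coding kilobase of all 29 genes. Cyp51 stood 7.06 times above it per coding kilobase and 3.15 times per transcript kilobase. Nsdhl and Ebp both lie on the X chromosome, and Dhcr7 lies on chromosome 7 at 143823145 to 143848410.

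Among the LXR genes and their targets, the receptors were compared first. Nr1h2, which encodes the broadly expressed LXR beta, had a mean of 609, and Nr1h3, which encodes LXR alpha, had 248. The ratio was 2.45 per coding kilobase and 2.40 per transcript kilobase in favour of Nr1h2. Abca1, the transporter that loads lipid-poor apolipoprotein, is a gene of 50 exons on chromosome 4 at 53030787 to 53159895. Its mean of 7813 made up 20.3% of the summed counts of the 29 genes, and its coding length of 6783 bases brought it to 1152 per coding kilobase and 761 per transcript kilobase. Abcg1, which exports sterol to mature particles, had a mean of 1216 (609 per coding kilobase and 209 per transcript kilobase). Abca1 exceeded it by 1.89 times on the first scale and by 3.65 times on the second, and the undivided means differed by 6.42 times.

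Mylip, a ubiquitin ligase that LXR induces and that limits lipoprotein uptake, had a mean of 1724, with 1292 per coding kilobase and 563 per transcript kilobase. Soat1, which esterifies cholesterol for storage in droplets, had 2957, and its 1825 per coding kilobase came next after the Insig genes. Its annotated transcript is long, and per transcript kilobase it fell to 353. Stard4, a carrier that moves free sterol between membranes, had 631. It also fell, from 939 per coding kilobase to 124 per transcript kilobase.

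Other genes of the pathway put these values in context. A list of 20 such genes had a median of 1088 per coding kilobase, and 14 of them lay above the protein-coding median on that scale. Among synthesis enzymes outside the set, Msmo1, a methylsterol oxidase, had 2829 per coding kilobase and 1217 per transcript kilobase, above all 17 synthesis genes of the set on both scales. Sc5d, a desaturase late in synthesis, had 1278 and 240. The order of the receptors depended on the length used. Per coding kilobase Scarb1 had 897, Vldlr 1315, Cd36 2522 and Lrp1 2693. Per transcript kilobase they had 543, 432, 1051 and 2466, and the undivided means were 1370, 3444, 3571 and 36712. Apoe, the apolipoprotein that carries sterol in eye and brain, stood far above Insig1, with 94342 against 4218 per coding kilobase and 62515 against 1215 per transcript kilobase.

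Of the lysosomal sterol genes, Npc2 has a short coding sequence of 447 bases and had 17425 per coding kilobase, against 3774 for Lipa and 559 for Npc1, the partner of Npc2. The gaps were smaller per transcript kilobase, with 2361, 1514 and 410, and the undivided means were 7789, 4495 and 2143 in the same order. At the low end, Soat2, the esterifying enzyme of liver and gut, had 3.91 per coding kilobase against 1825 for Soat1, and 2.79 against 353 per transcript kilobase. Apoa1, an apolipoprotein of liver and gut, had 2.62 per coding kilobase and 2.00 per transcript kilobase. Cyp46a1, a neuronal hydroxylase, had 21.6 and 15.3.

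Promoters of these genes shared short elements. RefSeq windows (GRCm38.p6) from 250 bases before to 50 bases after each start site were found for 24 of the 29 genes, and not for Fdps, Fdft1, Sqle, Abcg1 and Stard4. The CCAAT box is the letters CCAAT on either strand and the site bound by NF-Y, a usual partner of SREBP. It was present in 19 of the 24 (79.2%), against 41.1% of all 27025 genes with a window. Of the 11782 protein-coding genes with a window and a mean of at least 10, 42.3% had it. All 19 (79.2% of the 24) had at least 1 box before the start site, where most of each window lies, against 39.8% of the same coding genes. In 15 of them the middle base of a box lay 30 to 150 bases before the start site (17 by the first base). How often other genes have a box at that distance was not counted. The genes without a CCAAT box were Abca1, Acat2, Nr1h2, Nr1h3 and Scap. The GC box GGGCGG was present in 20 of 24 (83.3%), against 38.2% of all genes and 65.2% of the same coding genes. A sterol regulatory element spelled TCACNCCAC was found in 0 of the 24 genes and in 1.44% of all genes. Known elements depart from a single spelling, so this count says only that these letters were not in the windows.

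To show the element in place, a stretch of 60 bases is given for 1 gene of each role, namely the gene highest per coding kilobase whose CCAAT box lay in such a stretch outside annotated exons. Each is written from 5′ to 3′ on the strand of its gene, with the box in capitals, which read ATTGG where it is on the other strand. The stretches are those of Ggps1 (chr13:14063494-14063553, minus strand), Ebp (chrX:8193518-8193577, minus strand), Insig1 (chr5:28071186-28071245, plus strand), Mylip (chr13:45389665-45389724, plus strand) and Soat1 (chr1:156474332-156474391, minus strand).
Ggps1: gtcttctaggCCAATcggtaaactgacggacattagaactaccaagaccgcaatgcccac
Ebp: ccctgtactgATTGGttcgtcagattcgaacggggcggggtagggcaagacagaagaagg
Insig1: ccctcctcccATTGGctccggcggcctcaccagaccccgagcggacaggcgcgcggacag
Mylip: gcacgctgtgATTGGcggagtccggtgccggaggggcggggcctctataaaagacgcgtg
Soat1: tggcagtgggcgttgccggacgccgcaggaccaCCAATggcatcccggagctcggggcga

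The GC box letters also stand in lower case in the stretches of Ebp and Mylip. In Insig1 the box began 216 bases before the start site, farther than in the other 4 stretches. A match of letters is a description of sequence, and binding was not measured in these libraries.

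**Figure D3:**
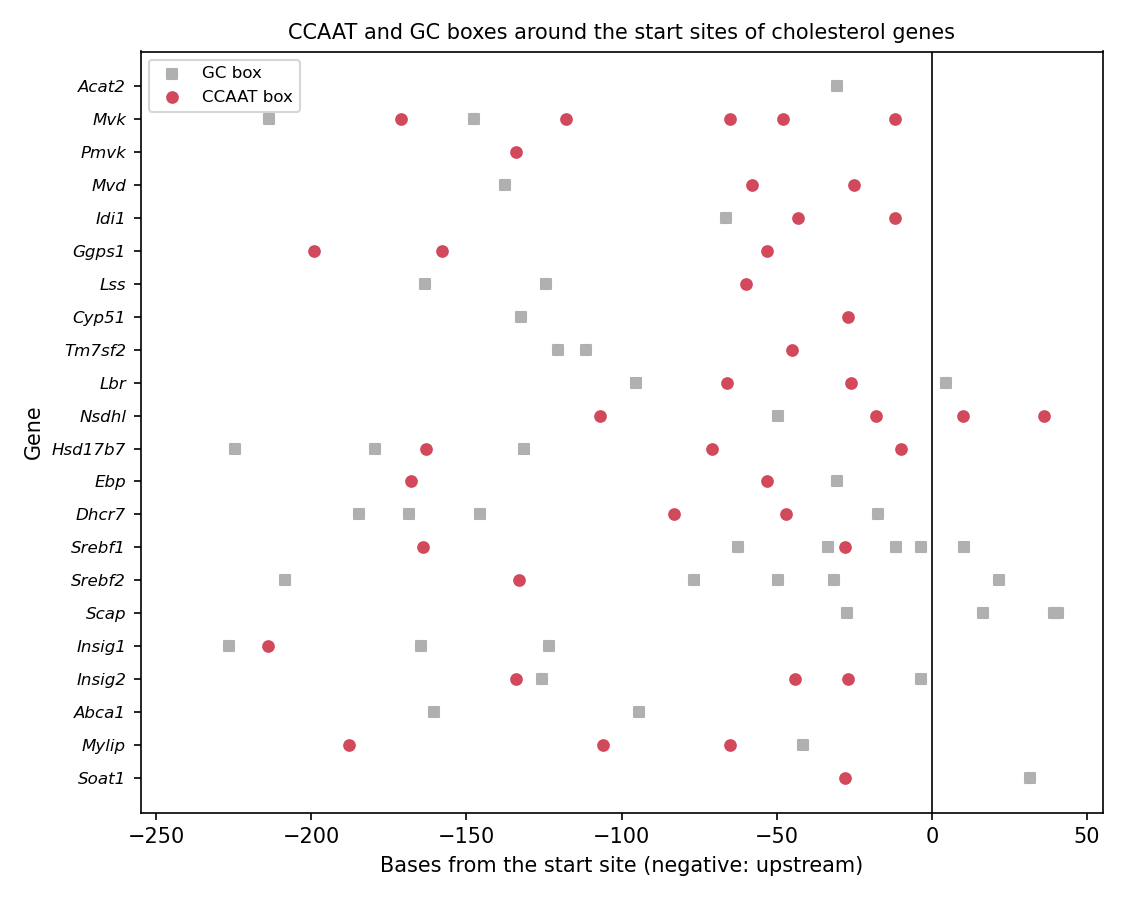
Each row is a cholesterol gene and the x axis gives the distance in bases from the start site (0, vertical line), with red circles for CCAAT boxes and grey squares for GC boxes. Windows of several start sites of a gene are drawn on the same row, and Nr1h2 and Nr1h3, with neither element, have no row. Most rows hold a red circle within 150 bases left of the line.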

How the data were processed

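Total RNA of RPE/choroid from 6 mice, 3 per age, was rRNA-depleted and sequenced with a stranded kit. The authors trimmed reads with BBDuk, mapped them with STAR to Ensembl transcripts of GRCm38, quantified TPM with Sailfish, turned these into counts by total-count scaling and ran DESeq2. The study also deposited poly(A)-enriched libraries, which were not used here. For the total RNA libraries 1 table was used, and its signal, baseMean, is the authors' mean of normalized counts over the 6 libraries. Of the table's columns, 0 name a sample. Another 5 hold the authors' own contrast of ages (log2 fold change, its standard error, Wald statistic, p-value and adjusted p-value) and were not used, so the planned limma comparison was not run.

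Coordinates, exons and lengths were taken from GENCODE M21 (GRCm38), a later annotation than the authors'. Of the table's symbols, 28553 matched directly and 2409 through RefSeq synonyms (91.3% in all). Shared words of 31 bases were counted over GENCODE transcripts on both strands. Percentiles are the percent of genes at or below a value, checked on simulated ranks (Python 3.11.15, pandas 2.3.3). All members were named, by role. Members and lists were chosen with earlier results of these data known, and the promoter elements and printed stretches after the levels had been seen. Some genes of the fixed lists are not reported here.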

Additional observations from a re-analysis of the deposited data

How the results depend on the processing

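The median percentile of the 29 genes was 82.4 among genes with a mean above 0. It was 73.8 among genes with a mean of at least 10 and 74.6 among protein-coding genes. The protein-coding genes had a median mean of 322, against 82.1 for all genes with a mean above 0. All 29 exceeded the median of detected genes, and 17 exceeded the upper quartile. Their share of the summed signal was 0.201%, and 0.216% without the 10 most abundant genes. Of the 10 genes leading per coding kilobase, 7 also led without division by length, and 4 led per transcript kilobase, so the order among the upper genes depended on the length used. At the low end, 8 of the last 10 were shared by both lengths. No paired analysis was possible because the values used are 1 mean over the libraries. For the same reason the comparison of ages and its alternatives of pseudocount, filter, scaling and left-out mice were not run. With depth per library unknown, no error could be set on any level.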
